A study of Mus musculus with 11 samples.

Results

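The 10 genes described here are the myeloid granule and receptor genes Mpo, Elane, Prtn3, Ctsg, Lyz2, Csf3r, Csf1r, Spi1, Irf8 and Plac8. They were taken by gene symbol as a fixed list from 24064 genes in the size-gated libraries and 23356 genes in the unfractionated libraries of the series. No cutoff on their values was used, but the list was chosen with earlier results of these data known. The genes were followed in hematopoietic stem cells (HSCs) of newborn mouse liver. The FSC-A High group has 4 libraries and the FSC-A Low group has 3; both are HSCs sorted by forward scatter area, a flow cytometry signal that increases with cell size, and where the gates were set is not given in the sources used here. The WT HSC group has 4 libraries of HSCs without a scatter gate. All 11 libraries come from wild-type C57BL/6 mice at postnatal day 0, have no treatment named in the labels, and hold 100 to 200 cells each, stained as Lineage- Sca1+ cKit+ CD150+ CD48- and made into cDNA by Smart-seq2, which amplifies whole transcripts and does not mark their strand. No label says whether the libraries of a group come from separate animals, so the p-values below measure the spread between these libraries. The gated values were taken as RPKM (reads per kilobase of transcript, scaled for sequencing depth) and the unfractionated values as reads, and the units were never mixed.

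Neutrophils and monocytes store antimicrobial enzymes in primary granules that are filled at the promyelocyte stage. The genes of these enzymes are switched on by transcription factors of the ETS, C/EBP and Myb families, above all PU.1, the product of Spi1, while the receptors for G-CSF and M-CSF, encoded by Csf3r and Csf1r, carry the signals that drive granulocyte and macrophage output. HSCs are known to hold low levels of some of these transcripts long before any granule is formed. The 3 granule proteases Prtn3, Elane and Ctsg are related serine proteases, and the first 2 lie side by side on mouse chromosome 10.

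The promoters of the 3 proteases and of Lyz2 are shown because their levels ran from among the highest of all genes (Lyz2, Prtn3) to 0 in every library (Ctsg). They are RefSeq sequences of GRCm38.p6, from 250 bases before to 50 bases after the annotated start, written 5′ to 3′ on the gene's own strand. Capitals mark AGGAAGT, an ETS-type sequence, CAACGG, a Myb-type sequence, and TATAA, on either strand, so that ACTTCCT and TTATA are the same words read from the other strand; these letters were chosen after reading the promoters, and a match is not a measured binding site.
Prtn3, chr10:79879417-79879716, plus strand: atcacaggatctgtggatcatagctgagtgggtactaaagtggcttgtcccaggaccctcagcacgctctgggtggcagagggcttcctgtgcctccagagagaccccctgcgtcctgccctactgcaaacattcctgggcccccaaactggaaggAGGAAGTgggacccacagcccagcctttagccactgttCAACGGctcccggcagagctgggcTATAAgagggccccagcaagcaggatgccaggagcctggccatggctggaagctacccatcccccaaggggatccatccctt
Elane, chr10:79886062-79886361, plus strand: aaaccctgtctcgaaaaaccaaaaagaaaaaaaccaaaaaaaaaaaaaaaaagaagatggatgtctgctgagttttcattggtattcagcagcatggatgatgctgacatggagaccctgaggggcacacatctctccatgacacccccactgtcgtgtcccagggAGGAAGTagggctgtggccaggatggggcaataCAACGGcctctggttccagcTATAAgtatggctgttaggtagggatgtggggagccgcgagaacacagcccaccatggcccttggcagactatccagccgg
Lyz2, chr10:117282223-117282522, minus strand: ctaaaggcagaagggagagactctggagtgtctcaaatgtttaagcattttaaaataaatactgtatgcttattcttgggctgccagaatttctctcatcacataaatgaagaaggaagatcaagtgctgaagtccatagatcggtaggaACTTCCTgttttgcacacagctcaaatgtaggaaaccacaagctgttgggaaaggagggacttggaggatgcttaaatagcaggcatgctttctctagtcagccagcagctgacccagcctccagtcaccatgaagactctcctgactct
Ctsg, chr14:56102525-56102824, minus strand: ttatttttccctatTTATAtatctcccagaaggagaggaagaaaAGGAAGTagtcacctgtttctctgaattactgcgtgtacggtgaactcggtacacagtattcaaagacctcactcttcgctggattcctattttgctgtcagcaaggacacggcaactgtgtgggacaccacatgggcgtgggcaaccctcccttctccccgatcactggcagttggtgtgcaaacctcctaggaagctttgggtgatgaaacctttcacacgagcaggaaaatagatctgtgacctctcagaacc
Prtn3 and Elane hold the 3 words in the same order, with AGGAAGT starting at -94 and -84, CAACGG at -56 and -51, and TATAA at -32 and -31 relative to the start. Lyz2 holds AGGAAGT at -100 with no match to the other 2 words in this window, and Ctsg holds it at -206 with TATAA at -236. Among 32851 RefSeq promoters of the same 300 bases, 9.35% held AGGAAGT, 5.12% held CAACGG and 24.9% held TATAA. The promoters of Csf1r and Spi1 were not read. Of the other 8 genes, 5 held AGGAAGT, 2 held CAACGG and 4 held TATAA in any of their promoters. These are counts of genes, while the shares above are of promoters. With these shared words, Prtn3 was at 88.3 to 134.6 RPKM, and Elane, 3137 bases downstream, was listed at 0 in 6 of 7 gated libraries.

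The gated libraries held an estimated 66.1 to 85.1 M reads (M, 1000000) in FSC-A High and 69.2 to 97.7 M reads in FSC-A Low, and the unfractionated libraries held 30889443, 21307178, 27206879 and 29952311 reads. WT HSC library 4 stood apart, with 11384 genes with reads against 12909 to 13368 in the other 3, and 15.2% of its reads in a single gene against 3.06% to 5.26%. Of the sort markers, Kit averaged 20.9 ± 3.37 RPKM in FSC-A High and 54.7 ± 6.22 RPKM in FSC-A Low, Ly6a (Sca1) 27.4 ± 12.6 and 12.9 ± 1.59 RPKM, and Slamf1 (CD150) 6.24 ± 2.58 and 8.82 ± 2.48 RPKM (SD, n = 4 and 3). Cd48, whose protein the sort excluded, was at 1.38 ± 1.38 RPKM in FSC-A High and 1.26 ± 0.427 RPKM in FSC-A Low. In a comparison of all 10619 genes that reached 1 RPKM in at least 3 of the 7 gated libraries, limma passed 27.3% at a p below 0.05 after Benjamini-Hochberg adjustment, 15.6% higher and 11.7% lower in FSC-A High, with a median log2 difference of -0.04 over all genes. The split of 1657 higher and 1245 lower genes became 980 higher and 2285 lower with library total scaling. There each library was scaled by the sum of its RPKM values over all genes, which is not its number of reads.

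Of the 10 myeloid genes, 7 reached that expression level and were tested. Plac8 and Lyz2 were higher in FSC-A High, none was lower, and Prtn3, Csf3r, Mpo, Spi1 and Irf8 did not pass the threshold. That is 2 of 7 higher beside 15.6% of all genes, 0 of 7 lower beside 11.7%, and a median log2 difference of 0.11. The libraries of FSC-A High and FSC-A Low did not overlap for 3 of the 7 (Plac8, Lyz2 and Prtn3), beside 34.9% of all genes tested. These are bulk libraries, in which fewer cells with a transcript and less RNA per cell cannot be told apart.

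**Figure D1:**
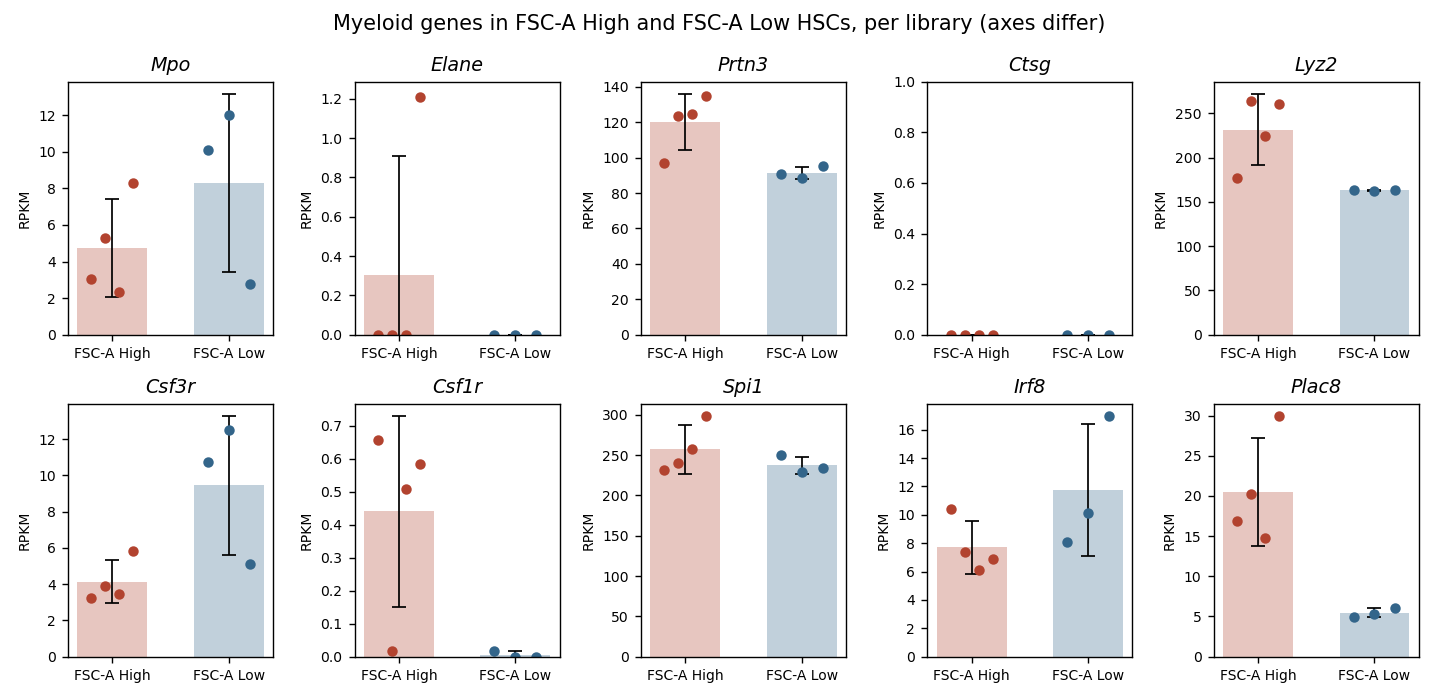
RPKM of each of the 10 genes in every gated library (points; 4 FSC-A High libraries on the left in red, 3 FSC-A Low libraries on the right in blue), with the group mean as a bar from 0 and the SD as an error bar; each panel has its own axis. Plac8, Lyz2 and Prtn3 are higher in every FSC-A High library than in any FSC-A Low library, Ctsg is listed at 0 in all 7, and Mpo and Csf3r are low in FSC-A Low library 3.

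The levels of the 10 genes spanned the whole range of the transcriptome on the RPKM scale, which is per length. Spi1 and Lyz2 stood above 98.97% and 98.55% of all genes by their mean over the 7 gated libraries, and Prtn3 above 96.68%. Next came Plac8 (81.21%), Irf8 (77.11%), Csf3r (73.21%) and Mpo (73.03%), and last Csf1r, Elane and Ctsg, each at 1.21 RPKM or less in every library. The library ranges of Spi1 and Lyz2 overlapped, those of Lyz2 and Prtn3 did not, and those of Prtn3 and Plac8 did not. Plac8, Irf8, Csf3r and Mpo overlapped each with the next in that order, and Mpo lay above Csf1r in every library.

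Among the granule genes, Lyz2, which encodes the lysozyme that cleaves bacterial cell walls, had 177.6, 264.5, 224.2 and 260.9 RPKM in the 4 FSC-A High libraries, against 163.3, 162.3 and 163.4 RPKM in the 3 FSC-A Low libraries. All 4 FSC-A High libraries lay above the 3 FSC-A Low libraries, which were nearly equal. The means were 231.8 ± 40.5 RPKM in FSC-A High and 163.0 ± 0.614 RPKM in FSC-A Low (SD, n = 4 and 3), and they differed by 0.49 on the log2 scale (SE 0.15; limma, adjusted p = 0.0304). The call depended on the libraries and settings used. Leaving out FSC-A High 2, 3 or 4 or any FSC-A Low library moved the adjusted p to between 0.0641 and 0.0876, and with the dependence of the differences on transcript length and GC content removed by a spline the log2 difference was 0.02 (limma, adjusted p = 0.928). Lyz2 lies at chr10:117277541-117282272, and its close paralog Lyz1, which begins 5522 bases beyond it, was at 0.00805 to 0.0464 RPKM; how the authors assigned reads that match both copies is not given in the sources used here.

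Prtn3, encoding proteinase 3, a serine protease of the primary granule, had 97.3, 123.8, 124.8 and 134.6 RPKM in FSC-A High, against 90.6, 88.3 and 95.2 RPKM in FSC-A Low. The groups did not overlap, but FSC-A High library 1 was only just above the highest FSC-A Low library. The means were 120.1 ± 16.0 RPKM in FSC-A High and 91.4 ± 3.49 RPKM in FSC-A Low (SD, n = 4 and 3), and the log2 difference of 0.38 (SE 0.15) did not pass the threshold (limma, adjusted p = 0.0780). Without FSC-A High library 1 it passed (limma, log2 difference 0.48, adjusted p = 0.0270), and with the length and GC spline it was 0.10 (limma, adjusted p = 0.703). Prtn3 lies at chr10:79879667-79883174.

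Elane, encoding neutrophil elastase, was listed at 0, 0, 0 and 1.21 RPKM in FSC-A High and at 0 in all 3 FSC-A Low libraries. FSC-A High library 4 was the only gated library with a value above 0. On chromosome 10 Prtn3, which ends 3137 bases before it, was abundant in every library, and Cfd, which starts 2636 bases after it and encodes the serine protease complement factor D, was listed at 0 in all 7 gated libraries. Elane lies at chr10:79886312-79888216. Ctsg, encoding cathepsin G, another serine protease of the primary granule, was listed at 0 in all 7 gated libraries; it lies at chr14:56099885-56102574.

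Mpo, encoding myeloperoxidase, the heme enzyme that makes hypochlorous acid in the neutrophil phagosome, had 3.07, 5.28, 2.32 and 8.27 RPKM in FSC-A High, against 10.1, 12.0 and 2.78 RPKM in FSC-A Low. The FSC-A Low libraries were divided: libraries 1 and 2 were the highest of the 7, and library 3 was the second lowest. The means of 4.74 ± 2.67 RPKM in FSC-A High and 8.30 ± 4.87 RPKM in FSC-A Low (SD, n = 4 and 3) differed by -0.63 on the log2 scale (SE 0.47; limma, adjusted p = 0.350), which is within the spread between libraries. Mpo lies at chr11:87793784-87804412, and 1435 bases at its start are also covered by the annotated noncoding gene Gm34064; without strand, reads from the overlap cannot be assigned to either. Lpo, the lactoperoxidase gene 2015 bases downstream, was listed at 0 in all 7.

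Of the receptors, Csf3r, encoding the G-CSF receptor of the neutrophil lineage, had 3.26, 3.92, 3.47 and 5.85 RPKM in FSC-A High, against 10.8, 12.5 and 5.11 RPKM in FSC-A Low. FSC-A Low libraries 1 and 2 were above every other library, while FSC-A Low library 3 lay below FSC-A High library 4, so the groups overlapped by 1 library. The means of 4.12 ± 1.18 RPKM in FSC-A High and 9.45 ± 3.85 RPKM in FSC-A Low (SD, n = 4 and 3) gave a log2 difference of -0.98 (SE 0.34) at the edge of the threshold (limma, adjusted p = 0.0518). Under 10 of 21 alternatives it was lower in FSC-A High past the threshold, the smallest adjusted p being 0.0143 by limma without FSC-A Low library 3 (log2 difference -1.32) and the largest 0.203 with the length and GC spline (-0.68). Its 3 annotated transcripts gave nearly the same values, 3.22 to 5.85 RPKM in FSC-A High and 5.01 to 12.5 RPKM in FSC-A Low. Csf3r lies at chr4:126023441-126044975 and shares 1214 bases with the noncoding gene Gm32908.

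Csf1r, encoding the M-CSF receptor of monocytes and macrophages, was at 0.656, 0.0159, 0.509 and 0.584 RPKM in FSC-A High, against 0.0179, 0 and 0 RPKM in FSC-A Low. Of the 4 FSC-A High libraries 3 were above 0.5 RPKM, and FSC-A High library 2 was within the range of FSC-A Low. Every library was below 1 RPKM, so Csf1r was not tested; fitted with no filter on low values, its log2 difference was 0.49 (limma, adjusted p = 0.117). Csf1r lies at chr18:61105572-61131139, over which 8247 bases are shared with the noncoding gene Gm52352.

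Of the transcription factors, Spi1, encoding PU.1, an ETS factor needed for myeloid and B cell development and for HSC maintenance, had 232.0, 240.1, 257.2 and 299.1 RPKM in FSC-A High, against 249.6, 229.4 and 234.1 RPKM in FSC-A Low. FSC-A High libraries 1 and 2 lay within the range of FSC-A Low and libraries 3 and 4 above it, with means of 257.1 ± 29.9 RPKM in FSC-A High and 237.7 ± 10.6 RPKM in FSC-A Low (SD, n = 4 and 3). The log2 difference was 0.11 (SE 0.13, limma, adjusted p = 0.580), and its sign turned when libraries were scaled by their total RPKM (-0.21), a scaling that moved the median of all genes to -0.30. Spi1 lies at chr2:91082374-91115759. Irf8, encoding the interferon regulatory factor that directs progenitors toward monocytes and dendritic cells, had 10.4, 7.34, 6.13 and 6.91 RPKM in FSC-A High, against 8.07, 10.2 and 17.0 RPKM in FSC-A Low. FSC-A Low library 3 was the highest and FSC-A High library 1 lay within the FSC-A Low range. The means were 7.70 ± 1.88 RPKM in FSC-A High and 11.7 ± 4.67 RPKM in FSC-A Low (SD, n = 4 and 3), and the log2 difference of -0.51 (SE 0.31) did not pass the threshold (limma, adjusted p = 0.238). Irf8 lies at chr8:120736358-120756694.

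Plac8, encoding a small cysteine-rich protein found in myeloid and lymphoid progenitors, showed the largest difference of the 7 tested genes. It had 16.9, 20.2, 14.7 and 30.0 RPKM in the 4 FSC-A High libraries, against 4.99, 5.28 and 6.09 RPKM in the 3 FSC-A Low libraries. Every FSC-A High library was more than 2 times the highest FSC-A Low library. The means were 20.5 ± 6.75 RPKM in FSC-A High and 5.45 ± 0.567 RPKM in FSC-A Low (SD, n = 4 and 3), a log2 difference of 1.69 (SE 0.28), or 3.22-fold on the log2(RPKM + 1) scale (limma, adjusted p = 7.99e-04). The difference passed the threshold under all 21 alternatives. Its smallest value was 0.90 (limma, adjusted p = 0.0399), when the trend on transcript length and GC content was removed by the spline. At 744 bases the Plac8 transcript is short, and the 1199 tested genes with transcripts under 1000 bases had a median log2 difference of 0.54. Plac8 lies at chr5:100551589-100572253.

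**Figure D2:**
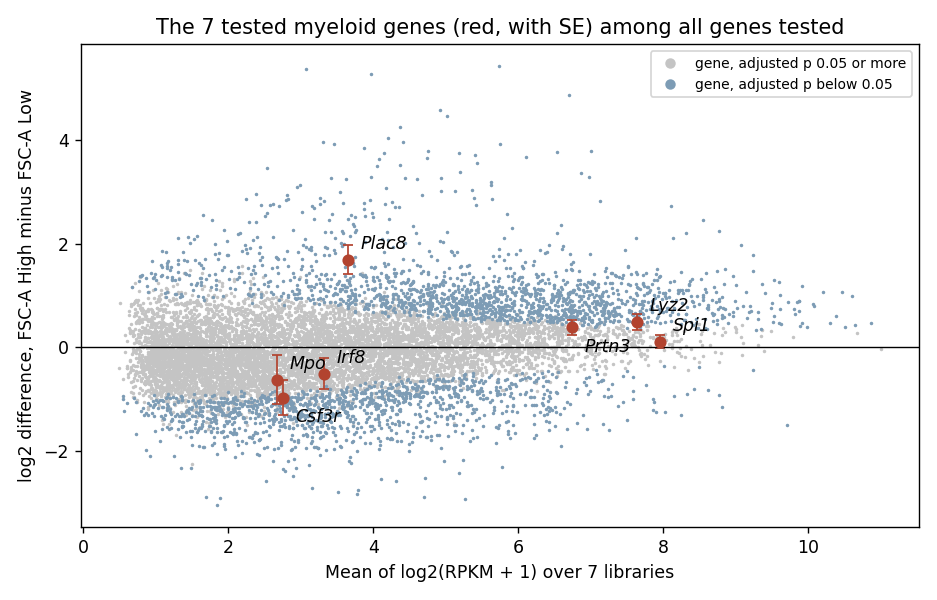
Log2 difference (FSC-A High minus FSC-A Low) of every tested gene against its mean log2(RPKM + 1) over the 7 gated libraries, with genes at an adjusted p below 0.05 in blue, the others in grey and the 7 tested myeloid genes in red with their standard errors. Plac8 at 1.69 stands within the upper blue cloud, Lyz2 at 0.49 and Prtn3 at 0.38 lie at its edge, Spi1 lies near 0, and Csf3r, Mpo and Irf8 lie below 0.

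**Figure D3:**
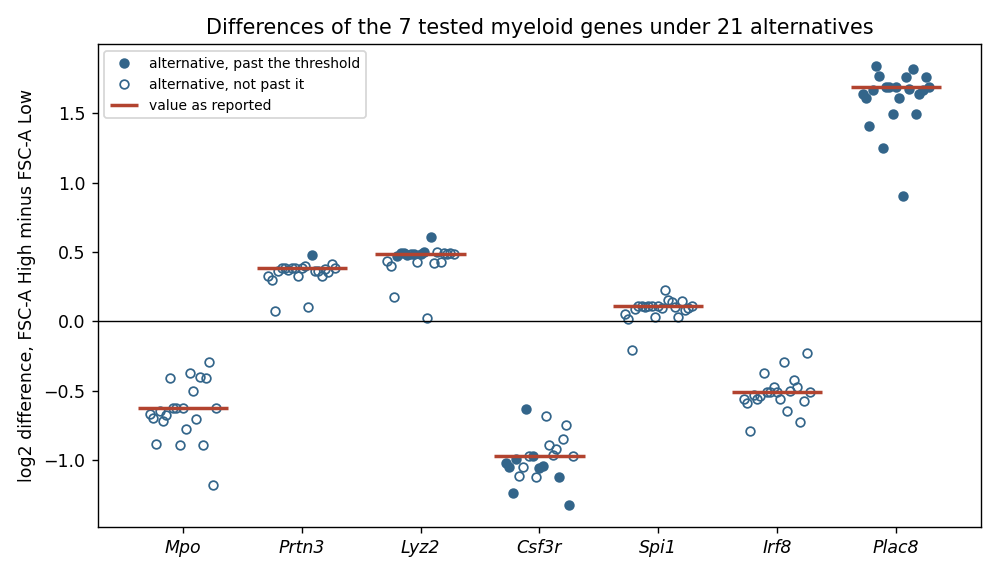
Log2 difference (FSC-A High minus FSC-A Low) of the 7 tested genes as reported (red line) and under 21 alternative settings (circles, filled where past the threshold). Plac8 is filled throughout (0.90 to 1.84), Lyz2 under 8 settings, Csf3r under 10 and Prtn3 under 1, while Mpo, Spi1 and Irf8 are filled under none.

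Mpo and Csf3r, a pair not among the planned comparisons, were highest in the same libraries. The 3 highest libraries of Mpo were FSC-A Low 2, FSC-A Low 1 and FSC-A High 4, and those of Csf3r were the same 3 in the same order. The other 4 libraries were ordered differently: FSC-A Low library 3 was the second lowest for Mpo, at 2.78 RPKM, while for Csf3r, at 5.11 RPKM, it was above FSC-A High libraries 1, 2 and 3. Among all tested genes, the profile most like that of Csf3r over the 7 gated libraries, measured by the root mean square difference of the centred log2(RPKM + 1) values, was that of Lcp1, which encodes the actin-bundling protein L-plastin of blood cells, at 0.0968. Lcp1 had 46.8, 52.9, 52.8 and 82.2 RPKM in FSC-A High, against 143.0, 155.9 and 82.7 RPKM in FSC-A Low, so FSC-A Low library 3 and FSC-A High library 4 again stood next to each other. Bcor, a transcriptional corepressor of BCL6, followed at 0.103 and Agpat4, an acyltransferase of phospholipid synthesis, at 0.127. Agpat4 had the same 3 highest libraries as Mpo and Csf3r in the same order, at 20.9, 13.9 and 8.81 RPKM. The order is thus not particular to Mpo and Csf3r, and its share among all genes was not counted. For Lyz2 the closest profiles were 2610301B20Rik at 0.0670, Pcbp2, an RNA-binding protein, at 0.0768 and Mospd3 at 0.0788. For Spi1 they were Trap1, a mitochondrial chaperone, at 0.0559, Nfkb1, an NF-κB subunit, at 0.0594 and Tspan14, a tetraspanin, at 0.0677.

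**Figure D4:**
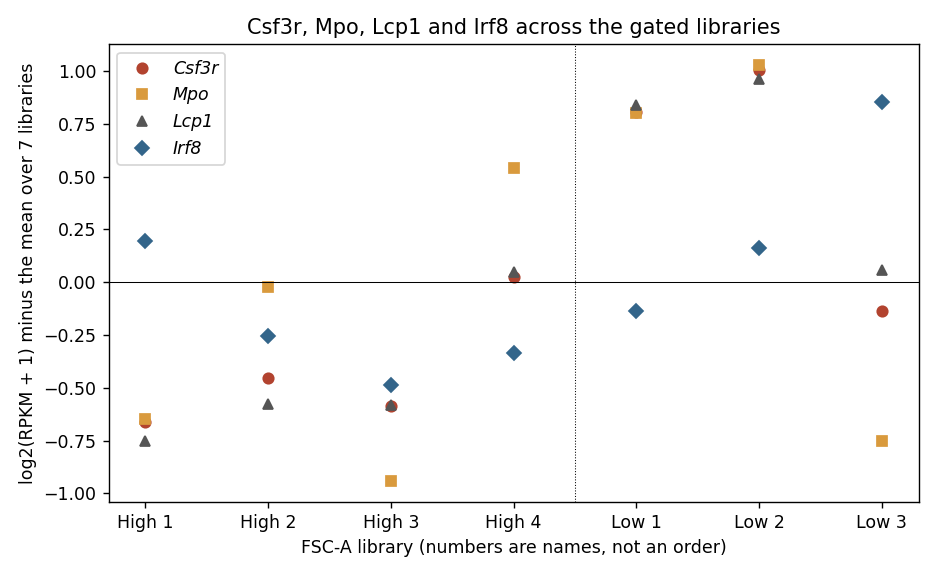
Log2(RPKM + 1) of Csf3r, Mpo, Lcp1 and Irf8 in each gated library, minus the gene's mean over the 7 libraries; FSC-A High libraries on the left, FSC-A Low on the right. Csf3r and Lcp1 stay close together in every library, Mpo has the same 3 highest libraries as Csf3r (FSC-A Low 2, FSC-A Low 1 and FSC-A High 4) and is low in FSC-A Low 3, where Irf8 has its highest value.

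In the unfractionated WT HSC libraries Lyz2, Prtn3 and Spi1 again led the 10 genes per length, in another order. Lyz2 had 480.3, 557.8, 610.9 and 591.1 CPM (reads per 1000000 reads), Prtn3 had 344.1, 313.2, 312.5 and 280.1 CPM, and Spi1, listed there under its older symbol Sfpi1, had 329.9, 210.2, 173.9 and 196.8 CPM. Per kilobase of transcript, a scale on which genes can be compared, Lyz2 averaged 425.6 ± 43.7, Prtn3 304.9 ± 25.5, Spi1 111.9 ± 34.3 and Plac8 102.9 ± 47.4 CPM per kb (SD, n = 4). The ranges of Lyz2 and Prtn3 did not overlap, nor did those of Prtn3 and Spi1, while those of Spi1 and Plac8 did. Irf8 averaged 9.07 ± 1.34, Csf3r 7.57 ± 2.29 and Mpo 3.65 ± 2.73 CPM per kb, with overlapping ranges between Irf8 and Csf3r and between Csf3r and Mpo, and Csf1r averaged 0.770 ± 0.393 CPM per kb.

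Plac8 varied most among the abundant genes, with 26.4, 77.9, 102.4 and 99.6 CPM, library 1 lying far below the other 3. Mpo had 259, 342, 426 and 3 reads (8.39, 16.1, 15.7 and 0.1002 CPM), so that library 4, the library with the fewest detected genes, was at the level of 3 reads; the mean was 10.1 CPM with it and 13.4 CPM without it. Csf3r had 29.1, 35.4, 16.5 and 24.3 CPM, with library 3 the lowest. Irf8 had 28.2, 21.3, 29.6 and 24.2 CPM, a narrower range. Csf1r had 38, 105, 74 and 91 reads (1.23, 4.93, 2.72 and 3.04 CPM). Some macrophage markers, singled out after their values were seen, were also highest in library 2. C1qb had 49, 673, 101 and 2 reads and Cd5l had 57, 500, 1 and 0. Others, such as Cd14 (43, 44, 71 and 0 reads), were highest in library 3. The later granule genes S100a8 and S100a9 had reads mainly in library 4 (140 and 104). The part of other cells in these levels was not tested. Elane and Ctsg had 0 reads in all 4 libraries, which allows at most 0.0971 to 0.141 CPM per library at 3 reads, for counting error only.

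**Figure D5:**
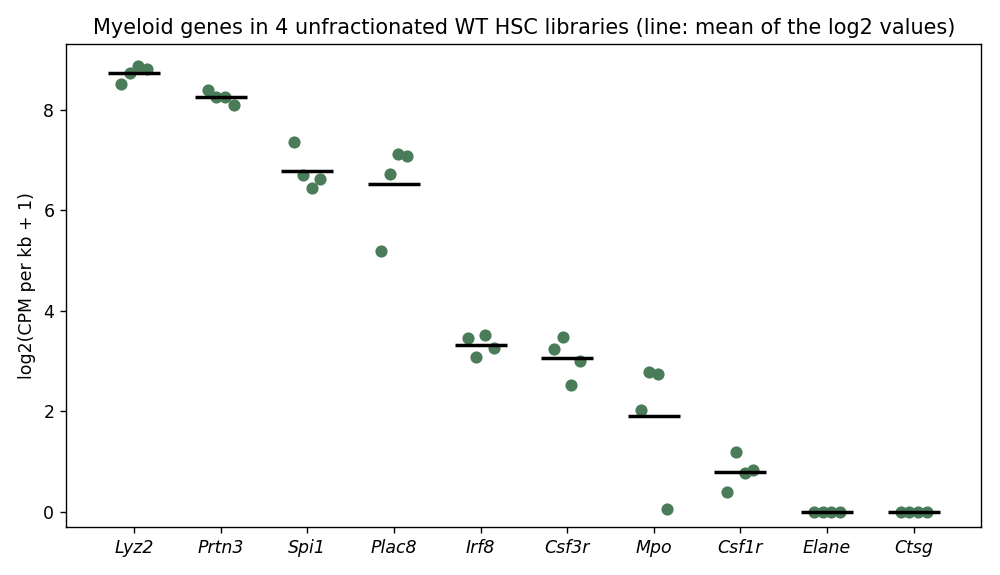
Log2(CPM per kb + 1) of the 10 genes in the 4 unfractionated WT HSC libraries (points, libraries 1 to 4 from left to right within a gene; lines, means of the log2 values). Lyz2 and Prtn3 lead, Plac8 has 1 low library, Mpo falls to near 0 in library 4, and Elane and Ctsg are at 0 in all 4.

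The surrounding myeloid programme was read from lists of related genes. Of 21 early myeloid progenitor genes, 11 were tested, and in FSC-A High 3 of these rose and 0 fell while 8 failed the test. For comparison, rises made up 15.6% and falls 11.7% of the 10619 genes tested. The median log2 difference of the list was 0.17. Igfbp4, singled out after its values were seen, pointed the other way and narrowly missed the threshold (limma, log2 difference -0.52, adjusted p = 0.0503). Mgst1, a microsomal glutathione transferase, averaged 62.1 ± 14.5 RPKM in FSC-A High and 26.6 ± 7.68 RPKM in FSC-A Low (limma, log2 difference 1.20, adjusted p = 0.00201). Srgn, the granule proteoglycan serglycin, averaged 115.9 ± 30.3 RPKM in FSC-A High and 76.1 ± 9.88 RPKM in FSC-A Low (limma, 0.57, adjusted p = 0.0459). Nkg7, a granule membrane protein of cytotoxic cells, averaged 2.50 ± 0.592 RPKM in FSC-A High and 0.821 ± 0.718 RPKM in FSC-A Low (limma, 1.00, adjusted p = 0.0489). None of the 3 passed with the length and GC spline (limma, adjusted p = 0.0969 for Mgst1 and 0.523 for Nkg7), and Srgn turned to -0.19. Without FSC-A High library 3, FSC-A High library 4 or FSC-A Low library 3 the count of genes that rose was 1 (Mgst1), and it was 1 under each of 4 other scalings. Srgn and Nkg7 also lost their calls with no filter, the replicate block, the sum over transcripts, a pseudocount of 0.1 and a threshold of 0.01. Nkg7 lost its call with a pseudocount of 0.5 or 5 and with sample weights. It also lost it without FSC-A High library 1, FSC-A High library 2 or FSC-A Low library 1, and Srgn without FSC-A Low library 2.

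Most genes on the list of later granule genes were near the floor, but Padi4 stood above 82.57% of all genes by its mean. Of 20 listed, 19 are in the files, 17 stayed below 1 RPKM in all 7 gated libraries and 6 were listed at 0 throughout. The 2 that were tested did not pass: Padi4, which citrullinates histones in neutrophils, averaged 12.8 ± 5.45 RPKM in FSC-A High and 20.9 ± 11.1 RPKM in FSC-A Low (limma, log2 difference -0.68, adjusted p = 0.239), and Ltf, lactoferrin, 2.15 ± 1.497 RPKM in FSC-A High and 1.66 ± 0.803 RPKM in FSC-A Low (limma, 0.16, adjusted p = 0.819).

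Of 17 other cytokine receptors, 14 were tested, of which 2 fell, 0 rose and 12 failed the test. Among all genes tested, 11.7% were lower and 15.6% higher in FSC-A High. The median log2 difference of the list was -0.42. Kit, the stem cell factor receptor used in the sort, had 22.0, 18.6, 17.9 and 25.2 RPKM in FSC-A High, against 61.2, 54.0 and 48.8 RPKM in FSC-A Low, with no overlap between the groups (limma, -1.35, adjusted p = 3.31e-04). Csf3r, at -0.98, lay between Kit and the median of the list.

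Of 26 other transcription factors of the myeloid and stem cell programme, 17 were tested, of which 9 fell, 0 rose and 8 failed the test. Among all genes tested, 11.7% were lower and 15.6% higher in FSC-A High. The median log2 difference of the list was -0.75. The number lower on the list became 3 with the length and GC spline. It became 5 without FSC-A High library 2, without FSC-A High library 3 or without FSC-A Low library 2. Cebpb, a C/EBP factor of emergency granulopoiesis, averaged 16.9 ± 10.5 RPKM in FSC-A High and 126.4 ± 40.3 RPKM in FSC-A Low (limma, -2.94, adjusted p = 1.09e-04). Myb, a progenitor factor, averaged 35.0 ± 4.996 RPKM in FSC-A High and 79.9 ± 12.8 RPKM in FSC-A Low (limma, -1.16, adjusted p = 5.71e-04). Zfpm1, the GATA cofactor FOG1, averaged 8.29 ± 3.85 RPKM in FSC-A High and 29.9 ± 4.37 RPKM in FSC-A Low (limma, -1.85, adjusted p = 0.00226). Gata2, an HSC factor, had 86.8, 70.9, 71.3 and 55.0 RPKM in FSC-A High, against 122.8, 149.7 and 119.3 RPKM in FSC-A Low (limma, -0.88, adjusted p = 0.00262), and with the length and GC spline it no longer passed (limma, -0.40, adjusted p = 0.114). Spi1 and Irf8, described above, are not on this list and did not pass. Cebpa and Cebpe, the C/EBP factors of granulocyte commitment and of secondary granules, were singled out after their values were seen: Cebpa was at most 0.0178 RPKM in FSC-A High, against 0 in FSC-A Low, and Cebpe at most 0.284 RPKM in FSC-A High and 0.268 RPKM in FSC-A Low.

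Markers of other cells that could carry myeloid transcripts ranged from 0 to well expressed. Of 18 monocyte, macrophage and Kupffer cell markers, 12 stayed below 1 RPKM in all 7 gated libraries, Cx3cr1 was listed at 0 in all 7, and the list summed to 15.8 to 38.3 RPKM in FSC-A High and 10.4 to 20.5 RPKM in FSC-A Low. Cd68, a lysosomal membrane protein of macrophages singled out after its values were seen, was at 6.32 to 21.3 RPKM in FSC-A High and 8.12 to 11.7 RPKM in FSC-A Low, above 79.55% of all genes by its mean. None of the 5 tested passed, the smallest p-values being those of Cd14, at 0 to 5.09 RPKM in FSC-A High, against 0 in FSC-A Low (limma, log2 difference 1.24, adjusted p = 0.0792), and C1qb, at 2.32 to 8.05 RPKM in FSC-A High and 0 to 4.48 RPKM in FSC-A Low (limma, 1.31, adjusted p = 0.0827). C1qb was higher past the threshold without FSC-A High library 1 or FSC-A Low library 2 (limma, adjusted p = 0.0424 and 0.0181), and Cd14 without FSC-A High library 2 (limma, adjusted p = 0.0170). Of 16 mast cell, basophil and eosinophil markers, 14 were listed at 0 in all 7, and the list summed to 0.443 to 4.53 RPKM in FSC-A High and 1.94 to 5.20 RPKM in FSC-A Low. Hdc, the histidine decarboxylase of these cells and the only marker tested, did not pass (limma, -0.68, adjusted p = 0.304). Of 18 lymphoid markers, 11 were listed at 0 in all 7, with sums of 18.3 to 58.9 RPKM in FSC-A High and 20.5 to 34.4 RPKM in FSC-A Low, most of it from Cd79b, an immunoglobulin-associated signalling chain, which stood above 88.19% of all genes and averaged 33.2 ± 16.4 RPKM in FSC-A High and 23.9 ± 6.92 RPKM in FSC-A Low (limma, 0.38, adjusted p = 0.421). Klrb1c, a natural killer cell receptor, was at 0.00942 to 0.850 RPKM in FSC-A High and 1.23 to 1.40 RPKM in FSC-A Low and did not overlap between the groups and did not pass (limma, -0.90, adjusted p = 0.0600). It was lower past the threshold under 6 alternatives, among them the sum over transcripts (limma, -1.33, adjusted p = 0.0270) and leaving out FSC-A High library 4 (limma, -1.09, adjusted p = 0.0255). The part of such cells in the Lyz2 and Plac8 differences was not tested.

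Of 12 megakaryocyte markers 8 were tested, of which 2 fell, 0 rose and 6 failed the test. The shares over all genes tested were 11.7% lower and 15.6% higher in FSC-A High, for this list and those below. Gp1ba, a platelet glycoprotein, was lower (limma, -1.20, adjusted p = 0.0276), at 0.236 to 1.11 RPKM in FSC-A High and 1.85 to 4.63 RPKM in FSC-A Low. It no longer passed without FSC-A High library 1, FSC-A High library 4 or FSC-A Low library 2 (limma, adjusted p = 0.0598, 0.0646 and 0.112). The call was also lost with no filter, the replicate block or the length and GC spline (limma, adjusted p = 0.0620, 0.0686 and 0.0590), and at a threshold of 0.01. Pf4, platelet factor 4 (limma, 0.88, adjusted p = 0.0504), and Gp9, another platelet glycoprotein (limma, 0.67, adjusted p = 0.0587), singled out after their values were seen, had differences of the other sign at higher levels, and neither passed. The endothelial and stellate list had Pecam1 lower (limma, -1.52, adjusted p = 0.00901) among 2 tested. The hepatocyte list summed to 67.5 to 85.4 RPKM in FSC-A High and 65.0 to 87.7 RPKM in FSC-A Low. Most of this sum came from Trf, singled out after its values were seen. Trf was at 45.0 to 52.1 RPKM in FSC-A High and 43.6 to 64.6 RPKM in FSC-A Low. None of the 8 tested genes of the list passed, the smallest p-values being those of the apolipoprotein genes Apoa2 (limma, 0.85, adjusted p = 0.147) and Apoa1 (limma, 0.63, adjusted p = 0.174). Apoa2 was higher past the threshold without FSC-A High library 1 (limma, 1.20, adjusted p = 0.0289), and Apoa1 without FSC-A Low library 1 (limma, 0.98, adjusted p = 0.0445). The erythroid list summed to 286.5 to 654.8 RPKM in FSC-A High and 295.2 to 350.5 RPKM in FSC-A Low. Most of this came from Car2, singled out after its values were seen, which did not pass (limma, 0.10, adjusted p = 0.795). Of the 3 tested, 1 was higher, the globin gene Hbb-bt (limma, 1.06, adjusted p = 0.0102). Hbb-bt no longer passed with the length and GC spline (limma, 0.34, adjusted p = 0.386), with no filter or at a threshold of 0.01. The other globin genes listed, Hba-a1, Hba-a2, Hbb-bs and Hbb-y, were below 1 RPKM in all 7 gated libraries and not tested. Hbb-bs went the other way, at 0.202 to 0.358 RPKM in FSC-A High and 0.565 to 0.676 RPKM in FSC-A Low. Ptprc, encoding CD45, which is not named in the stain, was lower like Kit (limma, -1.93, adjusted p = 5.61e-04). Of the sort markers, Ly6a (limma, 0.92, adjusted p = 0.0518), Slamf1 (limma, -0.49, adjusted p = 0.344) and Cd48 (limma, -0.09, adjusted p = 0.899) did not pass. Ly6a was higher past the threshold under 4 alternatives, among them leaving out FSC-A High library 1 (limma, 1.23, adjusted p = 0.00476).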

How the data were processed

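RNA of 11 libraries from newborn mouse liver HSCs was analysed, grouped by their titles. In the gated files the authors deposited RPKM, already scaled for depth and length, for each of 33984 RefSeq transcripts. That unit is an inference, since no label or header names it. Values multiplied by transcript length add up to similar totals, and FPKM would look alike. In FSC-A High these totals are 0.716 to 0.727 of what RPKM would give in full, and in FSC-A Low 0.675 to 0.681. The groups do not overlap in this total, and the part of this offset in the differences was not tested. The deposited unfractionated files give a signal for each of 23420 gene symbols (27 turned into dates and dropped) with the pattern of whole reads scaled by a single factor per library: 100% of the values became whole reads within 0.01, and these reads were expressed as CPM and, with GENCODE M21 transcript lengths, as CPM per kb. STAR, DESeq2 and mm10 are named in the submitters' processing notes, without versions or roles. Depth of the gated libraries was estimated from the steps between low values.

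For each gene the transcript highest on average in the 7 gated libraries was used, and coordinates are those of RefSeq for GRCm38.p6 (mm10). The scatter groups were tested against each other in R 4.3.3 by limma 3.58.1 (lmFit, eBayes with a trend) on log2(RPKM + 1) without covariates, over genes reaching 1 RPKM in 3 or more libraries; fold changes are on that scale and come out too small for low genes. P-values were adjusted by Benjamini-Hochberg over all 10619 genes tested, with a threshold of 0.05. The fit was tested on simulated data. Named genes were the 10 genes, up to 4 called genes per list (2 with the smallest p where none was called), the markers of the sort, and for the highest granule, receptor and factor gene the 3 closest profiles. A gene that this rule names is not reported here. The genes and lists were chosen with earlier results of these data known. Alternatives covered scaling (including TMM from edgeR 4.0.16), pseudocount, filter, transcript sum, sample weights, a replicate block, a spline (5 degrees of freedom) on transcript length and GC content, a threshold of 0.01 and leaving out each library. Figures were drawn with matplotlib 3.10.9 in Python 3.11.15.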

Additional observations from a re-analysis of the deposited data

Results flagged for a closer look

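Elane in FSC-A High library 4 was flagged because 1 library stood apart from the other 3 of its group. It was listed there at 1.21 RPKM and at 0 in the other 3 FSC-A High libraries, and at 0 in all 3 FSC-A Low libraries. With the other 3 libraries at exactly 0, the ratio of the gap to the range is 1 for any value above 0, so Dixon's rule flags it whatever its size. The rule was applied to 17 groups of 4 libraries; chance flags about 1 in 20 groups, a rate that does not hold for values at 0. The same library also had the highest FSC-A High values of Mpo (8.27 RPKM), Csf3r (5.85 RPKM), Prtn3 (134.6 RPKM), Spi1 (299.1 RPKM) and Plac8 (30.0 RPKM).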

How the results depend on the processing

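Of the 7 tested genes, Plac8 kept its direction and call under all 21 alternatives, and Mpo, Irf8 and Spi1 passed under none. The number of the 10 genes higher in FSC-A High, 2 as reported, was 1 with median ratio, upper quartile or library total scaling, with no filter, with the replicate block, with the length and GC spline and at a threshold of 0.01, and 1 to 3 leaving out a library: Lyz2 no longer passed (limma, adjusted p = 0.0550, 0.0683, 0.361, 0.0830, 0.0519 and 0.928 in the first 6), and without FSC-A High library 1 Prtn3 passed beside Lyz2 and Plac8. The number lower, 0 as reported, was 1 with median ratio, upper quartile, library total or TMM scaling, a pseudocount of 5, a filter at 5 RPKM, the sum over transcripts or sample weights, and 0 to 1 leaving out a library, the gene being Csf3r. Over all genes tested, 1657 higher and 1245 lower became 980 and 2285 with library total scaling, 972 and 853 with the spline, 1064 and 545 at a threshold of 0.01, and 1313 to 1639 and 868 to 1166 leaving out a library. The median of all genes, -0.04, moved to -0.09, -0.12, -0.30 and -0.06 with median ratio, upper quartile, library total and TMM scaling. Signs turned for Spi1 (-0.21, library total), Srgn (-0.19, spline), Cd79b (-0.13, spline), Ltf (-0.026 with library total; -0.11 to 0.48 leaving out a library, negative without FSC-A High 3 or FSC-A Low 1) and Cd48 (0.0039 at pseudocount 5, 0.23 with the replicate block, 0.10 with weights; -0.44 to 0.23 leaving out a library, positive without FSC-A High 4 or FSC-A Low 2). The replicate block gave 1460 higher and 971 lower, and the deviations of same-numbered libraries did not move together (r = -0.03, 0.06 and 0.00), so the numbers were not taken as pairs. The causes were not tested. The 50 alternative means in WT HSC libraries stayed within 1 SD. For the means that leave out a library this was fixed in advance, because such a mean cannot move by a full SD. Those means therefore show nothing about stability. In the unfractionated libraries a count of 0 allows 0.0971 to 0.141 CPM, the limit for Elane and Ctsg there.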
